A study of Mus musculus with 10 samples.

Results

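The genes described here are 10 genes whose proteins store, release and remove calcium around the sarcoplasmic reticulum of heart muscle: *Ryr2*, *Casq1*, *Casq2*, *Trdn*, *Asph*, *Jph2*, *Atp2a2*, *Pln*, *Sln* and *Slc8a1*. They were taken by gene symbol for this role, with no cut on their values but with earlier results of these data known, and each matched 1 of the 23195 genes in the deposited table, of which 16973 are protein coding. RNA-seq of polyA RNA was performed on hearts of male E13.5 embryos, embryonic day 13.5, labelled as strain C57BL6/J. The wild-type group has 5 libraries with genotype wildtype, and the null group has 5 libraries with genotype Nos1ap null. Null embryos are homozygous for tm1d, an allele that lacks exon 4 of *Nos1ap* in every tissue after recombination by the ubiquitously active CMV-Cre. The allele was made in embryonic stem cells of C57BL/6N origin and crossed to C57BL/6J for several generations, so DNA next to *Nos1ap* may still come from the stem cells. *Nos1ap* encodes an adaptor protein of neuronal nitric oxide synthase. Whole hearts were used, and in such bulk samples fewer cells of a type and less RNA per cell cannot be told apart.

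In a contracting heart muscle cell, calcium that enters through the surface membrane opens the ryanodine receptor, a channel in the membrane of the sarcoplasmic reticulum, and stored calcium flows out to the myofilaments. For relaxation, the pump SERCA2 returns calcium to the store under the restraint of small membrane proteins, and the sodium-calcium exchanger carries the remainder out of the cell. The embryonic heart already beats with this machinery while its membrane junctions are still forming.

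All 10 genes were listed with a higher group mean in *Nos1ap* null than in wild type, by log2 ratios from 0.01 (*Pln*) to 0.34 (*Sln*) with a median of 0.10. Of all protein-coding genes averaging 10 normalized counts or more (13299 genes), 49.5% were higher in null, and their median log2 ratio was -0.00093. A normalized count is a gene's number of read pairs after scaling for the depth of its library by a size factor. A mean of 1000 or more was found for 9 of the 10 genes, which are better set beside the 2622 protein-coding genes of that level, of which 55.8% were higher in null. The median log2 ratio was 0.09 for the 9 genes and 0.0057 for the 2622. A log2 ratio above 0.1, a limit chosen after the values were seen, was reached by 4 of the 9 (*Casq1*, *Ryr2*, *Slc8a1* and *Asph*), against 3.24% of the 2622 genes. *Sln* also reached it, but its mean is far below 1000, so the 2622 genes are no measure for it. Of the 11387 protein-coding genes averaging 50 or more, 915 were above 0.1 and 947 below -0.1. A log2 ratio below -0.1 was found for 0 of the 9 and for 1.03% of the 2622. Genes of 1 cell type vary together with the share of that cell type, so the 10 genes are not 10 separate observations, and the direction of the list was not tested.

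**Figure D1:**
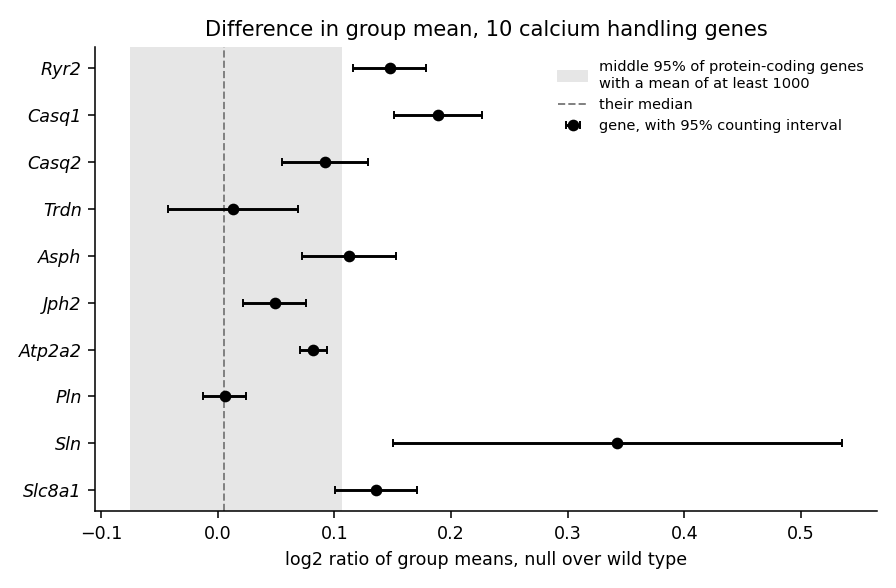
Log2 ratio of group means, null over wild type (x axis), for the 10 genes (y axis). Bars are 95% intervals for counting error only, the grey band spans -0.07 to 0.11 and holds the middle 95% of the 2622 protein-coding genes averaging 1000 or more, and the dashed line is their median. *Ryr2*, *Casq1*, *Asph* and *Slc8a1* lie to the right of the band, and *Pln* and *Trdn* lie near the median. *Sln* also lies to the right, but it averages far less than 1000, and the band does not apply to it.

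For the 9 abundant genes the table gives 2 group means and no value of single libraries. Their intervals below therefore come from the number of reads alone and leave out the variation between embryos. For *Sln*, the counts of all 10 libraries could be worked out from the digits of the group means, and it is the only one of the 10 genes to which a test across libraries was applied. For 7 of the others, the digits set a smallest SD that 5 libraries could have had, and the true SD may be larger. A difference divided by the standard error built from these smallest SDs is then an upper limit.

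*Ryr2*, the ryanodine receptor of heart muscle, spans 11553102 to 12106945 of chromosome 13, minus strand (positions here and below are those of GRCm38). Its group mean was 3163 in wild type and 3503 in null, a log2 ratio of 0.15 with a 95% counting interval from 0.12 to 0.18. Of the 2622 genes, 31 had a larger ratio. The SD between libraries was at least 181 in wild type and 107 in null, and the difference of 340 was at most 3.62 standard errors.

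The calsequestrins bind calcium inside the store and hold it near the release channel, *Casq2* being the known form of heart muscle and *Casq1* that of fast skeletal muscle. *Casq1*, on chromosome 1 from 172209894 to 172219868 (minus strand), had a mean of 2108 in wild type and 2402 in null. Its log2 ratio of 0.19 (95% counting interval 0.15 to 0.23) was the largest of the 9 abundant genes, and 23 of the 2622 genes had a larger one. The SD was at least 170 in wild type and 67.8 in null, so the difference of 294 was at most 3.60 standard errors. *Casq1* lies 1.62 Mb from *Nos1ap* and is the only one of the 10 genes on that chromosome. Loss of *Nos1ap* and any linked DNA of the stem cells cannot be told apart for it.

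*Casq2*, on chromosome 3 from 102086415 to 102146514 (plus strand), had a mean of 2283 in wild type and 2433 in null. Its log2 ratio was 0.09 with a 95% counting interval from 0.06 to 0.13. The SD was at least 193 in wild type and 150 in null, and the difference of 151 was at most 1.38 standard errors. Per kb of the principal transcript, the level of *Casq2* was 0.783 times that of *Casq1* in wild type and 0.732 times in null. Per kb, the form named for skeletal muscle thus had the higher mean of the 2 forms in both groups, and the difference between the forms was not tested. Defining skeletal muscle markers stood far lower, the highest being *Tnni2* with 210 in wild type and 222 in null, and the part of skeletal muscle cells in the *Casq1* level was not tested.

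Because the 2 calsequestrin genes were read side by side in the same tissue, the 250 bases before each start site are shown here, 5′ to 3′ on the strand of the gene (RefSeq, GRCm38.p6). That of *Casq1* is chr1:172219896-172220145 and that of *Casq2* is chr3:102086165-102086414. Capitals mark matches on either strand to CANNTG, the E-box that factors such as MyoD and Hand proteins bind, or to GATAA, the core read by GATA factors.
Casq1: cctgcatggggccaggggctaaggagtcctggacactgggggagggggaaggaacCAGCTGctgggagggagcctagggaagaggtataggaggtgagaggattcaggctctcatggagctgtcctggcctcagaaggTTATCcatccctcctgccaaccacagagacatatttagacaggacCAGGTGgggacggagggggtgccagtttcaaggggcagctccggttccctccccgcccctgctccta
Casq2: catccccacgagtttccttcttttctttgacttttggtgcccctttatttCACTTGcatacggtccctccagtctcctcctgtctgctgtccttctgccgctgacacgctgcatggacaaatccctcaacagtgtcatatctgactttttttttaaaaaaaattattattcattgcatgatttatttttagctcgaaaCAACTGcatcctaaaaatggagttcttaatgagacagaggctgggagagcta
Each holds 2 E-box matches, and at least 1 is found in 66.2% of 32817 promoter windows of this length. *Casq1* also holds 1 GATAA match, where 22.6% of windows hold at least 1 and the *Casq2* window holds 0. Neither holds TATAAA, which 12.4% of windows do. No match overlapped another, and a match shows letters and not a bound factor. The windows differ in base composition, with 61.6% G or C for *Casq1* and 41.6% for *Casq2*. The promoter sequences at hand cover 6 of the 10 genes.

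Triadin and junctin anchor calsequestrin to the ryanodine receptor. *Trdn*, which encodes triadin (chromosome 10 from 33080554 to 33476709, plus strand), had a mean of 1035 in wild type and 1045 in null. Its log2 ratio was 0.01 with a 95% counting interval from -0.04 to 0.07, which includes 0. The difference of 9.61 was at most 0.148 standard errors, with an SD of at least 124 in wild type and 75.3 in null. *Asph* (chromosome 4 from 9448069 to 9669344, minus strand) encodes junctin, the store protein junctate and the enzyme aspartate beta-hydroxylase from 1 locus, with 15 coding transcripts in the annotation, and its gene-level value cannot separate them. Its mean was 1895 in wild type and 2048 in null, a log2 ratio of 0.11 (95% counting interval 0.07 to 0.15), with an SD of at least 135 in each group. The difference of 153 was at most 1.80 standard errors.

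*Jph2* encodes junctophilin 2, which ties the store to the surface membrane so that release channels face calcium channels. On chromosome 2 from 163336242 to 163397993 (minus strand), it had a mean of 4340 in wild type and 4491 in null. Its log2 ratio was 0.05 (95% counting interval 0.02 to 0.08), and 429 of the 2622 genes had a larger one. With an SD of at least 197 in wild type and 163 in null, the difference of 150 was at most 1.31 standard errors.

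**Figure D2:**
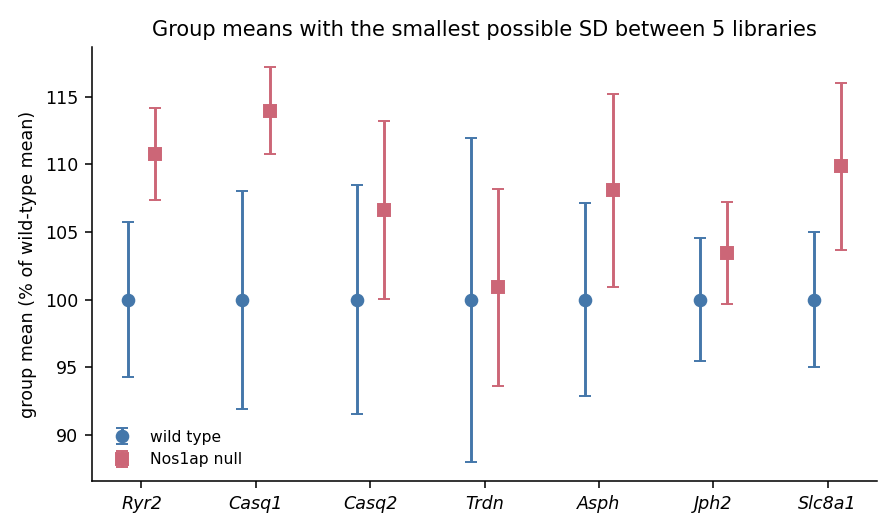
Group means of the 7 genes whose smallest possible SD could be found, in percent of the wild-type mean (y axis, which does not start at 0), for wild type (circles) and *Nos1ap* null (squares). Bars are the smallest SD that 5 libraries with that mean can have, so the true bars are as long or longer. The bars of the groups stay apart for *Ryr2* and *Casq1* and overlap for *Casq2*, *Trdn*, *Asph*, *Jph2* and *Slc8a1*.

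*Atp2a2*, which encodes the pump SERCA2, was the most abundant of the 10 genes. On chromosome 5 from 122453513 to 122502225 (minus strand), it had a mean of 24078 in wild type and 25489 in null, which is 5.86% higher. The log2 ratio was 0.08, and the 95% counting interval from 0.07 to 0.09 is narrow because of the number of reads. No spread between libraries could be derived at this level, so whether the difference exceeds that spread was not tested here.

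Phospholamban (*Pln*) and sarcolipin (*Sln*) are small proteins that sit in the membrane beside the pump and lower its affinity for calcium, phospholamban mainly in the ventricle and sarcolipin mainly in the atria. Their whole coding sequences are shown because their length tells how small these inhibitors are, with the start and stop codons in capitals. They are read 5′ to 3′ from GENCODE M21 transcripts on the plus strand of GRCm38, at chr10:53343864-53344022 for *Pln* and chr9:53853473-53853568 for *Sln*.
Pln: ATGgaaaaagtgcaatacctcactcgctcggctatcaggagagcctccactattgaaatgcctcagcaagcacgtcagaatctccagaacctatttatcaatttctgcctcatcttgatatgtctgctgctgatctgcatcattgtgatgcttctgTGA
Sln: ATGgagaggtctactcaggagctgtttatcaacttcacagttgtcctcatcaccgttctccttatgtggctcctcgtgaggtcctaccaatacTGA
The *Pln* sequence has 159 bases for 52 residues, the *Sln* sequence has 96 bases for 31 residues, and each lies in 1 exon of 2.

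*Pln* (chromosome 10 from 53337667 to 53345987) had a mean of 9062 in wild type and 9100 in null. Its log2 ratio of 0.01 had a 95% counting interval from -0.01 to 0.02, and with 1299 of the 2622 genes above it, it stood near their middle. The ratio of *Atp2a2* to *Pln*, pump to inhibitor, was 1.38 per kb in wild type and 1.46 in null. No spread between libraries could be derived for either gene, so this difference was not tested.

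*Sln* (chromosome 9 from 53850164 to 53854560) was the least abundant of the 10 genes and the one with the largest log2 ratio. The 5 wild-type libraries held 92.2, 90.0, 62.1, 89.8 and 51.7 normalized counts, and the 5 null libraries held 81.0, 108.6, 88.7, 108.5 and 102.4. Libraries are numbered within a group by descending size factor and do not carry the replicate numbers of the labels. The groups overlapped, since 3 wild-type libraries lay near 90 beside 2 null libraries at 81.0 and 88.7. The wild-type libraries at 62.1 and 51.7 were below every null library.

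The mean of *Sln* was 77.2 ± 18.9 in wild type and 97.8 ± 12.4 in null (SD, n = 5 each), a difference of 20.7 with an exact two-sided permutation p of 0.0794, where the arrangements of 10 libraries into 2 groups of 5 allow no p below 0.00794. By limma on log2(normalized count + 1), the difference was 0.37 with a standard error of 0.154, and its 95% interval ran from 0.04 to 0.69. The unadjusted p was 0.0281, and the Benjamini-Hochberg adjusted p over the 10360 protein-coding genes fitted with limma was 0.998. The difference thus did not pass the test. Called at an adjusted p under 0.05 were 0.029% of these genes, and 3.54% had an unadjusted p under 0.05. Without wild-type library 5 the log2 difference was 0.23, with an adjusted p of 0.985. The atrial markers, which could move with *Sln*, had log2 ratios from -0.07 to 0.07 in 7 genes, with *Myl4* at 20180 in wild type and 20145 in null, and their part in the *Sln* values was not tested.

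Over the 10 libraries, the 3 genes whose log2 values went most with *Sln*, among 8444 protein-coding genes averaging 50 or more, were *Cmya5* (Pearson r = 0.93), *Bcas3* (r = 0.93) and *Ryr3* (r = 0.92). The points share depth and library preparation, and 38 genes had r over 0.8, so these are a description only. *Cmya5*, which encodes a large protein of the muscle dyad and Z-disc region, had 368 to 517 normalized counts in wild-type libraries and 467 to 545 in null ones. *Ryr3*, the ryanodine receptor that is widely expressed outside the heart, is a relative of *Ryr2* and is described again below with the other families.

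*Slc8a1*, the sodium-calcium exchanger of the surface membrane, carries calcium out of the cell. On chromosome 17 from 81373105 to 81738377 (minus strand), it had a mean of 2490 in wild type and 2735 in null. Its log2 ratio was 0.14 (95% counting interval 0.10 to 0.17), and 37 of the 2622 genes had a larger one. The SD was at least 124 in wild type and 154 in null, and the difference of 245 was at most 2.78 standard errors.

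Per kb of the principal transcript, the order of the wild-type group means was *Atp2a2* (5367), *Pln* (3882), *Casq1* (1141), *Jph2* (1031), *Casq2* (893), *Slc8a1* (783), *Asph* (283), *Trdn* (229), *Ryr2* (188) and *Sln* (58.5). The null means followed the same order, from 5682 per kb for *Atp2a2* to 74.2 for *Sln*. Neighbours such as *Casq1* and *Jph2*, or *Asph* and *Trdn*, are close, and their spread between libraries was not derived on this scale. Part of the order depends on the length taken. Another length merged all exons of the protein-coding transcripts of a gene, untranslated parts included. With it, *Slc8a1* fell to 132 per kb in wild type and *Ryr2* stood above *Asph*, *Slc8a1* and *Trdn*. The first 5 and the last place were the same. *Pln* exceeded *Sln* 66.3 times per kb in wild type and 52.5 times in null, and the difference between these ratios was not tested.

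**Figure D3:**
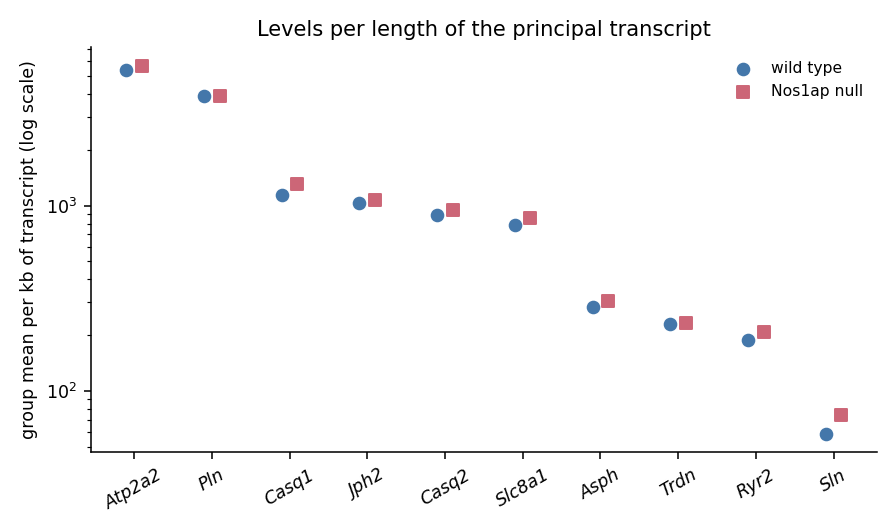
Group mean per kb of the principal transcript on a log axis (y) for the 10 genes (x), ordered by the wild-type level, with wild type as circles and *Nos1ap* null as squares. The pump *Atp2a2* and its inhibitor *Pln* stand above the others at 3882 or more, *Sln* stands lowest at 58.5 in wild type and 74.2 in null, and the groups are close for every gene beside the range between genes.

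Other genes of the store and the dyad, the contact of store and surface membrane, were given by a list of 50, of which 49 are in the table and 47 had a mean of at least 10. Of these 47, 27 were higher and 20 lower in null, with a median log2 ratio of 0.01. Single libraries could be derived for 31 of them, and limma called 0 of the 31 (smallest adjusted p 0.998), beside 0.029% of all genes fitted. At an unadjusted p under 0.05 there was 1, *Orai1*, which encodes a calcium channel of store-operated entry and is named here after its values were seen. It stood at 216 ± 6.68 in wild type and 193 ± 21.5 in null (SD, n = 5 each), with a limma log2 difference of -0.17, an unadjusted p of 0.0422 and an adjusted p of 0.998. The lowest null library had 156 normalized counts and the other null libraries had 196 to 210, and without it the log2 difference was -0.10 with an adjusted p of 1.00. Groups did not overlap for 0 of the 31, against 0.782% of the genes fitted.

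Of the 16 listed genes averaging 1000 or more, 10 were higher in null, the median log2 ratio was 0.02, and 0 had a log2 ratio above 0.1. Among those with the highest means were *Calr* and *Canx*, chaperones that bind calcium in the endoplasmic reticulum, *Srl*, which encodes the store protein sarcalumenin, and *Fkbp1a*, whose product binds the ryanodine receptor. Their log2 ratios were -0.07, 0.04, 0.07 and -0.06. *Srl* had 6369 in wild type and 6677 in null. *Hrc*, a histidine-rich calcium-binding protein of the store, had 1430 in wild type and 1485 in null, a log2 ratio of 0.05.

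Relatives of the 10 genes could be followed in single libraries. *Ryr3* had 326, 302, 227, 269 and 216 normalized counts in wild type and 279, 338, 282, 294 and 323 in null. Its groups overlapped, with a limma log2 difference of 0.19 (standard error 0.104, adjusted p 0.998), and 0.12 without wild-type library 5. *Jph1*, the junctophilin known from skeletal muscle, had 157, 177, 160, 151 and 163 in wild type and 200, 178, 165, 161 and 195 in null. Its log2 difference by limma was 0.15 (standard error 0.0807, adjusted p 0.998), and again the groups overlapped.

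*Atp2a3*, which encodes the pump SERCA3 of non-muscle cells, stood at 120 ± 15.4 in wild type and 132 ± 18.9 in null (SD, n = 5 each). *Slc8a2*, an exchanger known from brain, stood at 157 ± 28.2 in wild type and 135 ± 20.01 in null. The pump gene of fast skeletal muscle, *Atp2a1*, stood at 21.5 ± 6.26 and 23.6 ± 5.72, and the exchanger gene *Slc8a3* at 22.9 ± 4.86 and 20.8 ± 7.40. *Camk2b*, a calcium-dependent kinase subunit, stood at 70.1 ± 7.99 and 61.3 ± 10.3. By limma the adjusted p was 0.998 for each of these 5 genes, and their log2 differences lay between -0.21 and 0.15. That of *Slc8a2* was -0.21 with all libraries and -0.11 without wild-type library 3, and those of *Atp2a1* and *Slc8a3* turned direction when 1 library was left out. *Mrln*, which encodes the pump inhibitor myoregulin of skeletal muscle, had 11 counts over the wild-type libraries and 2 over the null libraries, too few for the fit.

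**Figure D4:**
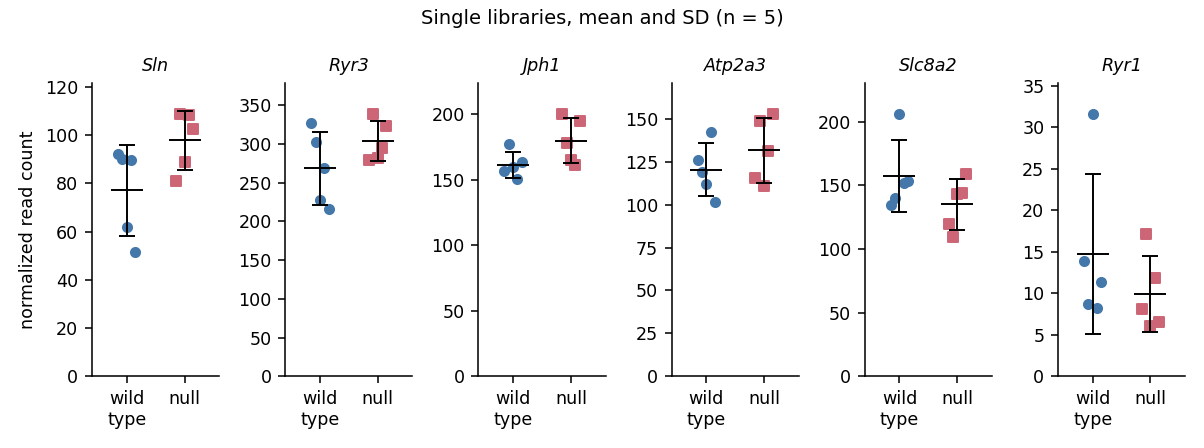
Normalized read counts (y axes, each from 0) of single libraries for *Sln* and 5 relatives of the other genes, wild type as circles and *Nos1ap* null as squares, with the mean and SD of 5 libraries as black bars. The groups overlap in each panel, and 1 wild-type library stands above the others for *Slc8a2* (206) and *Ryr1* (31.6).

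*Ryr1*, the release channel of skeletal muscle, and *Jph4*, a junctophilin of neurons, were, with *Atp2b2*, *Slc8a2* and *Camk2b*, the listed genes of mean 10 or more whose log2 ratios of group means were farthest from 0 in either direction, and all 5 were lower in null. *Jph4* had 199.5 normalized counts in wild-type library 3, from 12.2 to 22.7 in the other wild-type libraries and from 9.90 to 24.2 in null. *Ryr1* had 31.6 in that library, from 8.26 to 13.9 in the other wild-type libraries and from 6.05 to 17.1 in null. By limma the log2 difference was -0.89 for *Jph4* and -0.45 for *Ryr1*, and without wild-type library 3 it was -0.18 and -0.15, each with an adjusted p of 0.998. For *Atp2b2*, a calcium pump of the surface membrane, it was -0.02 with all libraries and 0.31 without that library.

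The libraries and their tissue were checked once for these comparisons. *Nos1ap* itself had 126 to 161 normalized counts in wild-type libraries and 31.1 to 44.4 in null ones, a limma log2 difference of -1.83 with an adjusted p of 9.4e-09. Depth, estimated from the size factors, was between 11328000 and 14023000 counted read pairs per library. Of 12 cardiomyocyte markers, 7 were higher in null, with log2 ratios from -0.03 to 0.08, a median of 0.01 and *Myh7* highest at 128162 in wild type and 129864 in null. Ventricular, smooth muscle and endothelial lists had median log2 ratios of -0.0024, -0.02 and 0.05, with *Acta2* and *Cdh5* highest in the last pair. The 6 skeletal muscle markers with a mean of at least 10 had a median of 0.03. The summed level of skeletal muscle markers with derived counts was 315 to 563 in wild-type and 358 to 501 in null libraries, with the highest value in wild-type library 3. Neuronal and glial markers with derived counts (6 of 9) summed to 526 in wild-type library 3. They summed to between 114 and 150 in the other wild-type libraries and to between 101 and 152 in null. This sum leaves out *Nefm*, whose counts were not derived and whose mean was 311 in wild type and 17.9 in null. The 6 markers of this list with a mean of at least 10, *Nefm* among them, were all lower in null, with a median log2 ratio of -1.98. Lung epithelium markers summed to 64.1 in wild-type library 3 and to at most 16.6 in the others, with *Sox2* highest at 7.88 in wild type. Erythroid markers had a median log2 ratio of 0.40, with *Hbb-y* at 69480 in wild type and 115020 in null. The part of these cell types in the ratios of the 10 genes was not tested.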

How the data were processed

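Libraries of polyA RNA from E13.5 hearts of 5 wild-type and 5 *Nos1ap* null males were grouped by the genotype in their labels. Per the submitters' processing notes and the study's methods, the authors checked reads with FastQC 0.11.5, trimmed them with Trimmomatic 0.36, aligned them with STAR within RSEM 1.2.31 to GENCODE transcripts on GRCm38, counting by strand, and scaled gene counts with DESeq 1.24.0. The signal values in the deposited table are means of normalized counts, which the authors averaged over the 5 libraries of a group. The table also holds the authors' fold changes, log2 fold changes and p-values, and none of these columns was used.

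A group mean is a sum of 5 whole counts, each divided by 5 times a size factor. Size factors were read from the lowest means, and the counts behind each mean under 1000 were searched in a reduced lattice. The set closest to equal expression was kept if at most 0.01 other sets as close were expected by chance, with a dispersion of 0.002. Counts were derived in both groups for 20219 genes. On simulated data, 0 of 3818 derived wild-type sets and 0 of 3832 derived null sets were wrong. For higher means, up to that of *Jph2*, the smallest SD over all sets that give the printed mean was computed.

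The test across libraries was that of limma 3.58.1 (R 4.3.3), run on protein-coding genes averaging 10 or more. It used log2 with a pseudocount of 1, trended and robust, and Benjamini-Hochberg over all genes fitted. It was also run on simulated data with 200 changed genes, and the share of changes it can find is not given here. *Sln* was compared by an exact permutation test. Lengths and positions come from GENCODE M21, whose gene models can differ from those the authors counted. Alternatives were a pseudocount of 0.5, voom weights, no filter, genes of every type, centred libraries, rescaled means and libraries left out. Further scripts used Python 3.11.15. Named were all 10 genes and, of the list of other calcium genes, those called, the 5 with the largest ratio, the 5 with the highest mean and the relatives of the 10, besides *Nos1ap*, the 3 genes most like *Sln* and the highest marker of each list. A gene that this rule selects is not reported here. The 10 genes and the lists were chosen by known function, with earlier results of these data known, so the choice is not independent of the data. The labels do not say whether embryos of a group share a litter, so p-values measure the spread between these libraries. Intervals from counts cover counting error only.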

Additional observations from a re-analysis of the deposited data

Results flagged for a closer look

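In 6 of the 36 groups of 5 libraries looked at for genes named above, 1 library stood apart from the others by more than 0.71 of the whole range. This is Dixon's limit for 5 values, which chance passes in about 1 of 20 groups not picked by their values. *Jph4*, *Ryr1*, *Slc8a2*, *Atp2b2* and *Orai1* were named for their ratio or p-value in these libraries, which 1 extreme library can produce. *Ryr1* and *Slc8a2* were also named as relatives of the 10 genes. *Sox2* was named for the highest mean of its marker list, which 1 extreme library can raise. The 6 of 36 can therefore not be set against that rate. In 5 of the 6 it was wild-type library 3, which was the highest of its group. It held 199.5 normalized counts of *Jph4* (0.944 of the range), 31.6 of *Ryr1* (0.757), 206 of *Slc8a2* (0.742), 35.6 of *Atp2b2* (0.764) and 25.4 of *Sox2* (0.768). For *Orai1* it was null library 4, the lowest of its group with 156 (0.732). *Sln*, the one gene of the 10 with values of single libraries, had no such library.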

How the results depend on the processing

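Under each alternative run, limma called neither *Sln*, the only one of the 10 genes that could be fitted, nor any of the 31 or 32 other calcium genes fitted. All 10 remained higher in null with a pseudocount of 1 and with rescaled means, and the log2 ratio was above 0.1 for 5 of them each time. Neither setting could turn a direction. A pseudocount keeps the order of 2 means, and the rescaling shift of 0.0015 was smaller than the smallest log2 ratio, 0.0060 for *Pln*. They are therefore no check of the direction. The limma difference of *Sln* kept its direction, from 0.23 to 0.44 with each library left out (adjusted p 0.839 to 1.00) and from 0.26 to 0.37 under the other settings. Its difference in mean normalized counts ranged from 14.3 to 24.9 with 1 library left out, with exact permutation p from 0.0714 to 0.167, and was 14.2 (exact permutation p = 0.286) without wild-type library 3 and null library 2. Leaving out both was chosen after seeing the data. They stand apart from others of their group by a chi-square per degree of freedom. It was 3.02 to 3.77 for pairs with wild-type library 3, against 1.54 to 2.87 for other wild-type pairs. For pairs with null library 2 it was 2.52 to 3.05, against 1.37 to 1.59 for other null pairs. Libraries could not be left out for the other 9 genes, whose counts are too high to derive. No paired analysis was possible because the group means carry no replicate numbers.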
